A study of Mus musculus with 24 samples.

Results

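The 37 genes described here encode proteins of autophagy and of the lysosome, and they were followed in inguinal subcutaneous white adipose tissue of mice. They were chosen by name, as genes of autophagy initiation, autophagosome formation, mitophagy and lysosome regulation, processes under the control of the energy sensor AMP-activated protein kinase (AMPK), and matched by gene symbol in both deposited count tables. All 37 were found once in each table, among the 38013 genes that the tables share, and all 37 passed the filter on low counts in every comparison. The members fall into 9 roles: 5 genes of initiation, 5 of the phosphatidylinositol 3-kinase complex, 5 of lipid transfer and the phagophore, 5 of ubiquitin-like conjugation, 4 of the ATG8 family, 3 cargo receptors, 4 mitophagy genes, the 3 TFEB family factors and 3 lysosome membrane proteins.

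The tissue came from C57BL/6J mice that all carried a transgene for the γ1 subunit of AMPK, either the wild-type form (WT-Tg) or the D316A form, which is labelled gain-of-function (D316A-Tg). Mice of each genotype were either fed chow and labelled 16 weeks of age, or fed a high-fat diet (HFD, 45%) and labelled 24 weeks of age, with 6 libraries in each of the 4 groups. No mice without a transgene were among the samples, and the labels do not say what drives the transgene or in which cells. They also do not say that each library came from a separate animal, and p-values therefore reflect only how far these libraries spread. On each diet the WT-Tg libraries are numbered 1 to 6 by their titles, and the D316A-Tg libraries 7 to 12. The comparisons asked whether the gain-of-function subunit changed messenger RNA levels of these genes on each diet, and whether it did so differently on the 2 diets.

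Autophagy encloses cytoplasm in a double membrane and delivers it to the lysosome. AMPK and the nutrient-sensing kinase complex mTORC1 act in opposite directions on the ULK1 kinase complex, which starts the process, and on the transcription factors TFEB and TFE3, which turn on lysosomal and autophagy genes through a DNA motif centred on CACGTG. Downstream, a lipid kinase complex marks the growing membrane, lipid transfer proteins enlarge it, conjugation enzymes attach ATG8 proteins such as LC3 to it, and receptors bring in cargo, mitochondria included. Much of this control acts on proteins by phosphorylation, which messenger RNA does not measure. In adipose tissue autophagy is known for its roles in adipocyte differentiation and in the removal of mitochondria from beige adipocytes.

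Each library held between 13254536 and 22748132 counts. Levels are given as CPM, the counts of a gene divided by the scaled size of its library, with sizes scaled by TMM, the trimmed mean of M-values, over all 24 libraries. Prkag1, the gene of the transgenic subunit, lay between 286 and 564 CPM on chow and between 255 and 720 CPM on HFD, and its genotypes did not separate (log2 fold changes of -0.09 and 0.25, adjusted p = 0.748 and 0.445 by edgeR). It cannot check the genotype labels, since nothing says if reads of the transgene fell to this gene. The libraries differed in the cells they held. A mean log2 CPM of 8 B lymphocyte markers above 3 was found in WT-Tg libraries 1 to 4 and D316A-Tg libraries 8 and 11 on chow, and on HFD in WT-Tg library 3 and D316A-Tg libraries 7, 8, 9 and 11. These are called lymphocyte-rich below, although the protocol had the lymph node removed. Summed B lymphocyte markers, none of them at 0 throughout a group, ranged from 3.32 to 1891 CPM in WT-Tg and 2.20 to 1387 CPM in D316A-Tg on chow, and from 4.68 to 521 and 13.4 to 922 CPM on HFD. Summed skeletal muscle markers ranged from 12.5 to 11310 and 14.5 to 541 CPM on chow, and from 18.6 to 213 and 214 to 22410 CPM on HFD. Adipocyte identity was clear in every library, with 8 mature adipocyte markers summing to at least 11980 CPM. In whole tissue, fewer cells of a type and less RNA per cell cannot be told apart.

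The motif known for TFEB and TFE3 was looked up in the promoters of the members, since those factors and their targets are both among the 37 genes. RefSeq promoters on GRCm38.p6, reaching from 250 bases before to 50 bases after a start, were on hand for 31 members with 37 starts, and 6 members (Becn1, Pik3c3, Rb1cc1, Atg16l1, Map1lc3a and Bnip3l) had none. The palindrome CACGTG was in 7 of the 37 promoters (18.9%), against 7.15% of 32851 mouse promoters of the same length, and its longer form TCACGTG, searched on both strands and always overlapping CACGTG, was in 5 (13.5%), against 3.77%. The 7 members were Lamp1, Mcoln1, Atg3, Atg5, Atg7, Atg14 and Bnip3. A match is a stretch of letters and not a binding site. Shown are the 250 bases before the start, read in the direction of the gene with CACGTG in capitals, for the 3 members with more than 1 match and for Bnip3, which differed between genotypes on HFD. The stretches are chr8:13158911-13159160, plus strand, for Lamp1, chr8:3500269-3500518, plus strand, for Mcoln1, chr16:45158579-45158828, plus strand, for Atg3, and chr7:138909507-138909756, minus strand, for Bnip3.
Lamp1: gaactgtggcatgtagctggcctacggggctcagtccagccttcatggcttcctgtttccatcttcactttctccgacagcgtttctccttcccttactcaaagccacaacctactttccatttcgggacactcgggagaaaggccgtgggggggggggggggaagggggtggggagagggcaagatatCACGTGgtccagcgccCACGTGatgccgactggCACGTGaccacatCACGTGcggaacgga
Mcoln1: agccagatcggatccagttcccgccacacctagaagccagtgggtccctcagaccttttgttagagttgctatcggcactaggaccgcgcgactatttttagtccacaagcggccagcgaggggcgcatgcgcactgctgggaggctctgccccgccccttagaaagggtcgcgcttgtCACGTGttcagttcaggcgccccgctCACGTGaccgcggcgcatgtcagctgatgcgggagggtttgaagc
Atg3: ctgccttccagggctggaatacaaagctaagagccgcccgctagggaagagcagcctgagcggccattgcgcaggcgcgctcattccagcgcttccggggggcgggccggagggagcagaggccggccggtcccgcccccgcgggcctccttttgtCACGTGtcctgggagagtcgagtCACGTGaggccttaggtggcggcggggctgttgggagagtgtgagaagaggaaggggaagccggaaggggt
Bnip3: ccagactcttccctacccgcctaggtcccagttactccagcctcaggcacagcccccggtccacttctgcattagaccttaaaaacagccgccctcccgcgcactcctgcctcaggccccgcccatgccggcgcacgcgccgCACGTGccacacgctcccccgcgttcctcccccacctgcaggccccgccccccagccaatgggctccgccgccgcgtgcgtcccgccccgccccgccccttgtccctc

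Counted with the base before the start as -1, the matches began at -61, -45, -28 and -15 in Lamp1, at -71 and -45 in Mcoln1, at -94 and -71 in Atg3 and at -108 in Bnip3. All 8 matches of Lamp1, Mcoln1 and Atg3 carried the flanking base of TCACGTG, and the match of Bnip3 did not. The promoters of Tfeb, Tfe3, Mitf, Ulk1 and Lamp2 on hand held no CACGTG.

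Per kilobase of exon, the scale on which genes can be compared, the same members stood near the top in every group. Lamp1, a heavily glycosylated protein that lines the lysosome membrane, stood first in WT-Tg on chow at 187 ± 33.4 CPM per kb (SD, n = 6), in D316A-Tg on chow at 250 ± 48.3 and in WT-Tg on HFD at 275 ± 35.0. In D316A-Tg on HFD, Bnip3, a mitophagy receptor of the outer mitochondrial membrane, stood first at 266 ± 41.5 CPM per kb, a mean within 1 SD of that of Lamp1 (225 ± 43.4). Gabarap and Map1lc3a of the ATG8 family filled the next places with Bnip3. In WT-Tg on chow, Bnip3 (90.7 ± 42.1 CPM per kb) and Map1lc3a (89.0 ± 42.3) did not differ beyond their spread. The TFEB family was low, Mitf lowest of all members in each group (1.41 ± 0.20 CPM per kb in WT-Tg and 1.71 ± 0.65 in D316A-Tg on chow, 2.83 ± 0.52 and 2.50 ± 0.52 on HFD).

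**Figure D1:**
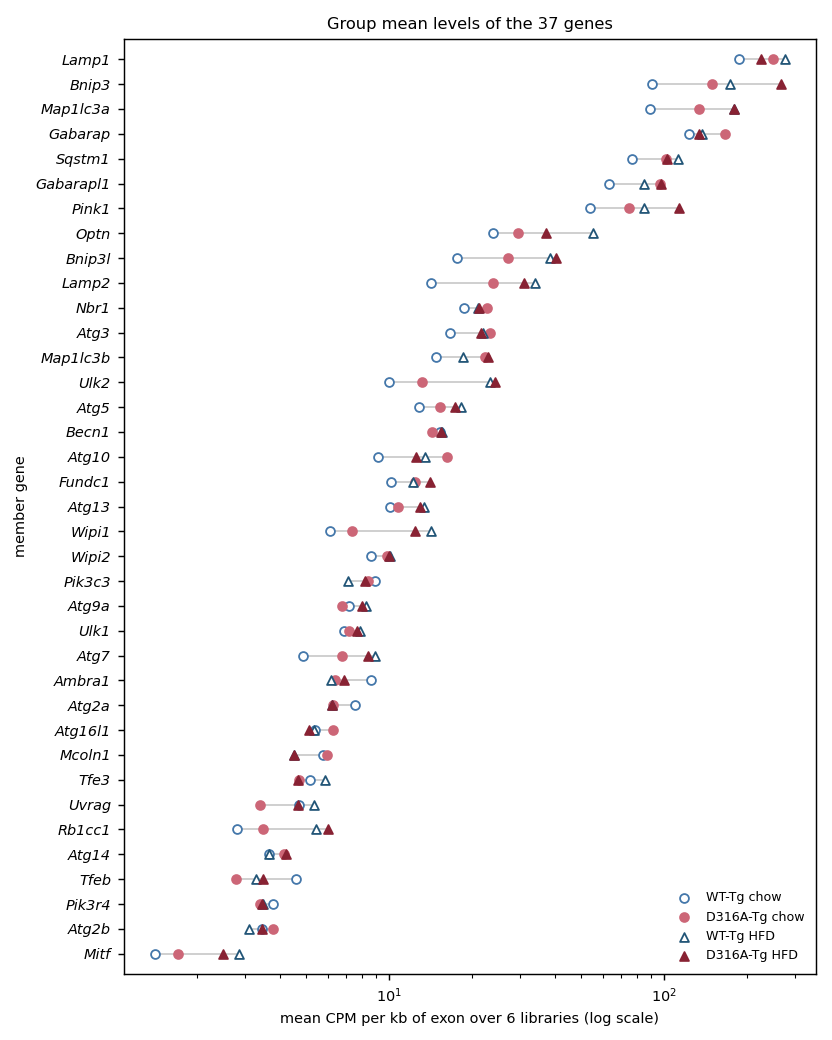
Mean CPM per kilobase of exon (horizontal log axis) of each of the 37 members (rows, ordered by their mean over the groups) in the 4 groups, circles for chow and triangles for HFD, open for WT-Tg and filled for D316A-Tg, each a mean of 6 libraries. Lamp1, Bnip3, Gabarap and Map1lc3a lie to the right, and Mitf lies farthest left in every group.

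How much a member varied among the 6 libraries of a group differed widely. The coefficient of variation of CPM had a median over the members of 12.7% for WT-Tg and 19.7% for D316A-Tg libraries on chow, against 9.59% and 12.6% on HFD. Map1lc3a varied most in WT-Tg on chow (47.5%) and on HFD (19.6%), Uvrag in D316A-Tg on chow (40.7%) and Wipi1 in D316A-Tg on HFD (46.3%). The steadiest members were Tfe3 in WT-Tg on chow (3.36%), Becn1, the Beclin 1 gene, in D316A-Tg on chow (4.24%) and WT-Tg on HFD (3.25%), and Atg3 in D316A-Tg on HFD (2.80%). Exons of other genes overlap 43.9% of the exon length of Becn1, and whether the counting used strand is not given in the sources used here.

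On chow, 28 of the 37 members had a positive log2 fold change in D316A-Tg against WT-Tg, and 5 passed the test. Bnip3l, Atg10 and Atg3 rose and Ambra1 and Atg2a fell, by edgeR's quasi-likelihood test with Benjamini-Hochberg adjustment over the 15249 genes tested and a threshold of 0.05. Among all these genes, 5.3% were called higher and 3.25% lower, against 3 and 2 of the 37 members, so the share of members called lay near that of all genes. The median log2 fold change of the members was 0.28, with 75.7% above 0, where that of all genes tested was -0.07, with 44.6% above 0. At an unadjusted p under 0.05, 16 members were higher and 3 lower, where 4553 of the 15249 genes were at that level in either direction.

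Bnip3l, which encodes NIX, a mitophagy receptor best known for clearing mitochondria from maturing red cells, lay between 57.6 and 73.6 CPM (median 70.1) in the WT-Tg chow libraries and between 84.7 and 125 CPM (median 104) in the D316A-Tg ones. Every D316A-Tg library was above every WT-Tg library, and Bnip3l was the single member for which this held on chow. How many of all genes separated without overlap was not counted, here or in the comparisons below. Its log2 fold change was 0.61 (SE 0.12, adjusted p = 0.0183, edgeR), a 1.52-fold higher level. Without the lymphocyte-rich libraries the 2 remaining WT-Tg libraries were at 70.3 and 72.5 CPM, and the 4 remaining D316A-Tg libraries at 95.8 to 125 CPM. These remaining libraries also differed by genotype in their skeletal muscle markers, as given below.

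The conjugation genes shared this direction, with all 5 above 0 and 2 of them called. Atg10, the E2-like enzyme that attaches ATG12 to ATG5, lay between 11.0 and 20.9 CPM (median 14.5) in WT-Tg and between 16.6 and 33.7 CPM (median 30.7) in D316A-Tg. This was 0.83 as a log2 fold change (SE 0.22, adjusted p = 0.0399, edgeR). Its groups overlapped through the lymphocyte-rich D316A-Tg library 8, at 16.6 CPM, and WT-Tg libraries 5 and 6, which are not lymphocyte-rich, at 20.2 and 20.9 CPM. Atg3, the E2-like enzyme that attaches ATG8 proteins to lipid, lay between 48.4 and 58.9 CPM (median 52.3) in WT-Tg and between 54.1 and 93.9 CPM (median 73.6) in D316A-Tg. Its log2 fold change was 0.48 (SE 0.13, adjusted p = 0.044, edgeR), and 5 of the 6 D316A-Tg libraries were above all WT-Tg libraries. Atg7, the E1-like enzyme that activates both conjugation systems, was at 0.47 (SE 0.22, adjusted p = 0.174), and Atg5 and Atg16l1 had 0.24 and 0.21 (adjusted p = 0.206 and 0.0909).

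The members that fell were a regulator of initiation and a lipid transfer protein. Ambra1, a scaffold that links Beclin 1 and ULK1 to ubiquitin ligases, lay between 47.8 and 59.0 CPM (median 53.4) in WT-Tg and between 31.2 and 50.2 CPM (median 37.9) in D316A-Tg. It fell by 0.44 on the log2 scale (SE 0.11, adjusted p = 0.0367, edgeR), and only D316A-Tg library 8 reached the WT-Tg range. Atg2a, which moves lipid from the endoplasmic reticulum to the phagophore, lay between 51.3 and 63.3 CPM (median 57.4) in WT-Tg and between 45.7 and 52.1 CPM (median 47.8) in D316A-Tg. It fell by 0.27 (SE 0.07, adjusted p = 0.0409, edgeR), while its paralogue Atg2b had a log2 fold change of 0.14 (adjusted p = 0.237).

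The remaining members on chow did not pass the test. The 4 ATG8 genes had log2 fold changes from 0.44 (Gabarap) to 0.62 (Gabarapl1), the nearest to the threshold being Map1lc3b, which encodes LC3B, at 0.59 (SE 0.17, adjusted p = 0.0522, edgeR). The 3 cargo receptors lay between 0.28 (Nbr1) and 0.42 (Sqstm1, the p62 gene). Bnip3 was at 0.72, Pink1, the kinase that marks damaged mitochondria, at 0.47, and Fundc1, another mitophagy receptor, at 0.29. Of the lysosome membrane genes Lamp2, needed for fusion of autophagosomes with lysosomes, was at 0.75 (SE 0.23, adjusted p = 0.0598), Lamp1 at 0.42 and Mcoln1, the calcium channel of the lysosome, at 0.05. In the phosphatidylinositol 3-kinase complex 1 of 5 genes was above 0, with values from -0.47 (Uvrag) to 0.18 (Atg14) and 0 at an unadjusted p under 0.05. Its median of -0.10 lay near the -0.07 of all genes tested.

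**Figure D2:**
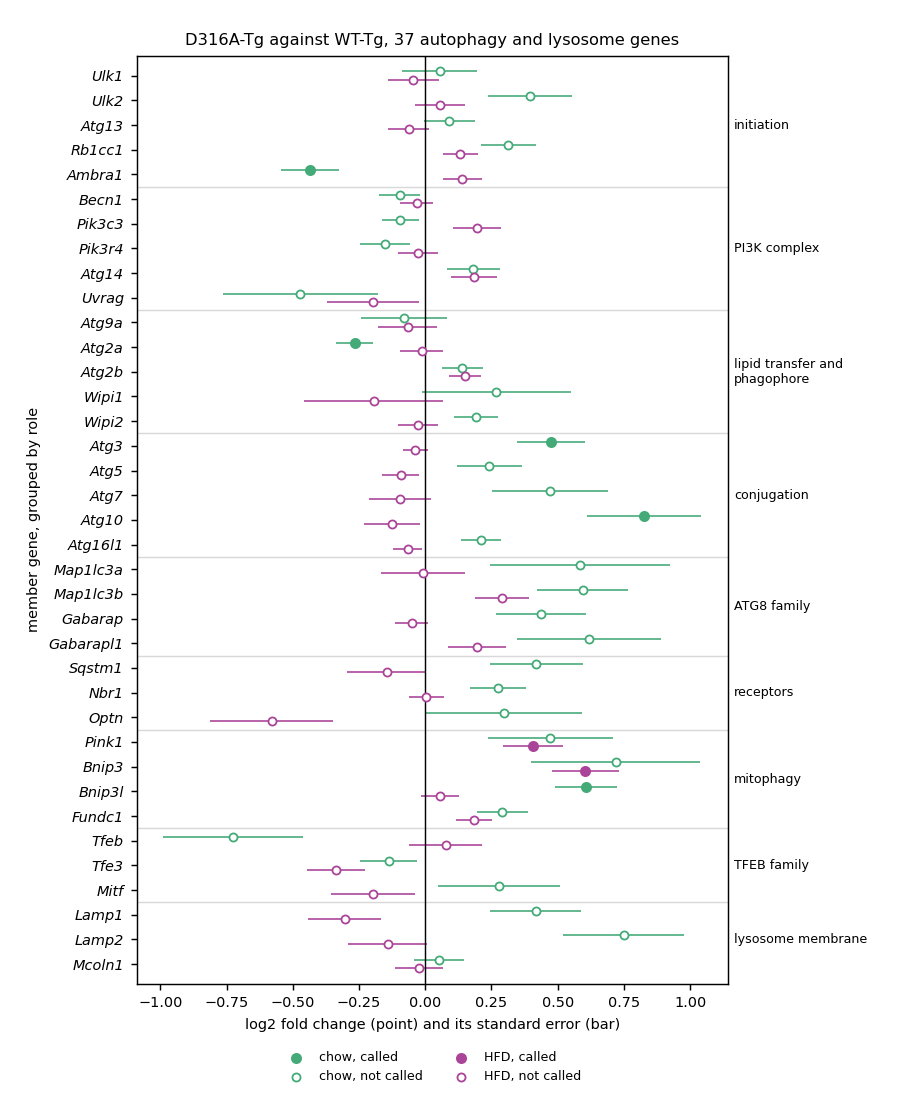
Log2 fold change of D316A-Tg against WT-Tg (horizontal axis) for the 37 members (rows, by role), on chow in green and on HFD in purple. Bars are 1 SE and filled points passed the edgeR test. On chow most points lie right of 0 from the conjugation genes to the mitophagy genes, and on HFD only Pink1 and Bnip3 are filled.

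Other markers moved with this comparison too. All 8 B lymphocyte markers had negative log2 fold changes on chow (median -1.64) and all 10 skeletal muscle markers tested (median -3.97), 0 of either called by edgeR, 0 and 8 at an unadjusted p under 0.05, and 0 and 7 lower by DESeq2. Of the 8 mature adipocyte markers 7 had positive log2 fold changes (median 0.59), with 0 called by edgeR or DESeq2 and 2 higher at an unadjusted p under 0.05. Summed, they had a median level of 18580 CPM over the WT-Tg libraries, against 42960 CPM over the D316A-Tg ones. Of the 10 macrophage markers 9 had negative ones (median -0.86), with 0 called by either tool and 4 lower at an unadjusted p under 0.05. Of the 5 brown adipocyte markers 3 rose, and of the 6 endothelial markers 1 fell. The part of these markers in the results for the members was not tested beyond the alternatives given here. Calls among the members were often lost when a library was left out, while the log2 fold changes stayed between 0.54 and 0.66 for Bnip3l, 0.74 and 0.94 for Atg10, 0.38 and 0.55 for Atg3, -0.52 and -0.38 for Ambra1, and -0.30 and -0.24 for Atg2a. The calls of Ambra1, Atg3 and Atg10 were each lost without any of WT-Tg libraries 1, 2, 3 and 4 or D316A-Tg libraries 7, 9, 10 and 12 (highest adjusted p = 0.0985, 0.11 and 0.112), that of Atg2a also without D316A-Tg library 11 (highest 0.0897), and that of Bnip3l without D316A-Tg library 9 or 12 (adjusted p = 0.0521 and 0.0523). The number of members called was 0 to 14 over these 12 fits, being 14 without D316A-Tg library 8, where 21.9% of all genes were called. It was 12 with DESeq2 and 16 in a fit of all 24 libraries, where 19.7% and 22.5% of all genes were called. With the skeletal muscle score as a covariate it was 0, where 178 of all genes (1.17%) were called. The median log2 fold change of the members was then 0.31.

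Within each genotype on chow, many members differed between lymphocyte-rich and other libraries. Map1lc3a, which encodes LC3A, was between 63.2 and 85.9 CPM in the 4 lymphocyte-rich WT-Tg libraries and at 161 and 176 CPM in the other 2. In D316A-Tg it was at 75.8 and 101 CPM in the 2 lymphocyte-rich libraries and between 159 and 225 CPM in the other 4. Bnip3 showed the same order, at 101 to 186 CPM against 300 and 344 CPM in WT-Tg, and at 198 and 227 CPM against 355 to 452 CPM in D316A-Tg. Gabarapl1, at 80.2 to 113 against 177 and 187 CPM in WT-Tg, and Wipi1, a protein that binds the lipid mark of the phagophore, at 19.7 to 22.9 against 37.02 and 40.03 CPM, were also lower in lymphocyte-rich libraries. Uvrag, a partner of Beclin 1 in endosome and autophagosome maturation, was higher in them, at 46.2 to 62.7 against 23.2 and 26.4 CPM in WT-Tg and at 40.8 and 51.5 against 21.3 to 24.6 CPM in D316A-Tg. On HFD Uvrag did not show this order. It was at 43.6 CPM in the lymphocyte-rich WT-Tg library against 46.8 to 51.6 CPM, and at 27.4 to 44.4 against 42.6 and 66.3 CPM in D316A-Tg. On chow 4 of the 6 WT-Tg and 2 of the 6 D316A-Tg libraries were lymphocyte-rich. Between genotypes the log2 fold changes were 0.59 for Map1lc3a, 0.72 for Bnip3, 0.62 for Gabarapl1, 0.27 for Wipi1 and -0.47 for Uvrag, none of them called. The part of lymphocyte content in these values was not tested beyond the fits that follow. With the B lymphocyte score as a covariate, 10 members were called on chow, among them all 5 of the calls above, and the median log2 fold change of the members was 0.15. Without the lymphocyte-rich libraries, 6 were called (Ambra1, Atg3, Atg7, Atg10, Map1lc3b and Bnip3l), 4 of them among the 5, with 2 libraries against 4 and a median of 0.20. The 2 WT-Tg libraries left had skeletal muscle scores of 5.75 and 7.47, and the 4 D316A-Tg ones had scores between -0.30 and 3.28. In that fit muscle content and genotype therefore cannot be told apart. The share of all genes called was 24.7% with the B lymphocyte score and 15.3% without the lymphocyte-rich libraries.

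**Figure D3:**
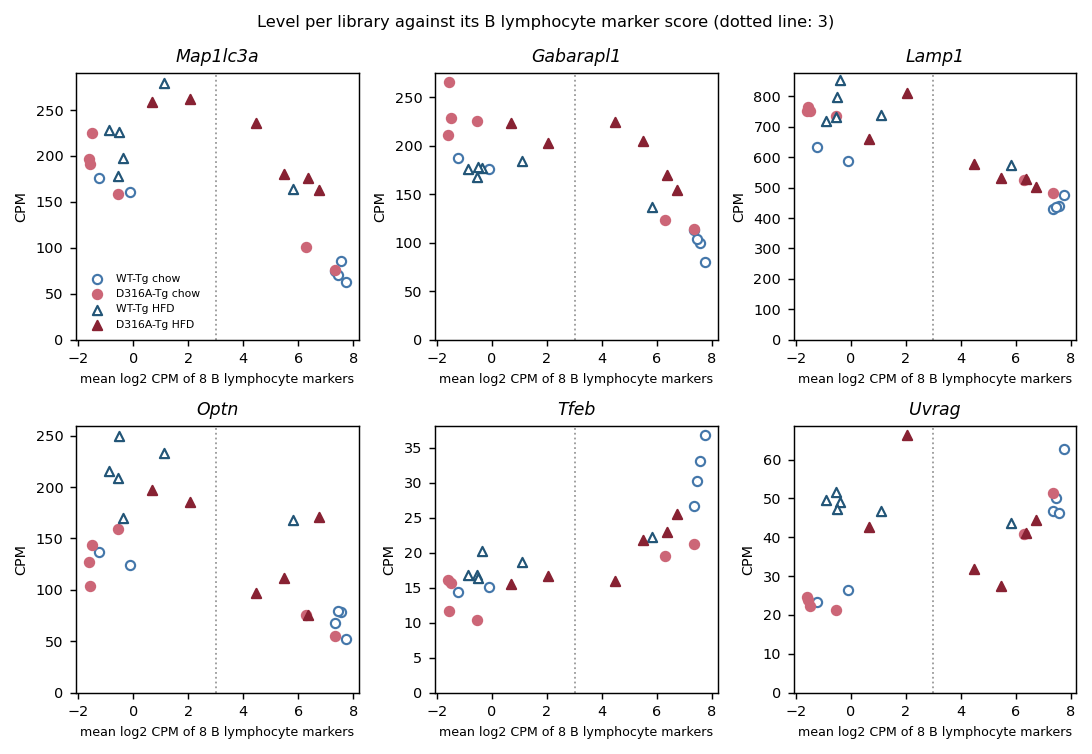
Level of 6 members in each of the 24 libraries (vertical axis, CPM) against the mean log2 CPM of 8 B lymphocyte markers in that library (horizontal axis), with circles for chow and triangles for HFD, open for WT-Tg and filled for D316A-Tg. Right of the dotted line at 3 lie the lymphocyte-rich libraries, in which the chow levels of Map1lc3a, Gabarapl1, Lamp1 and Optn are lower and those of Tfeb and Uvrag higher than in the other chow libraries.

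On HFD 2 of the 37 members passed the test, the mitophagy genes Bnip3 and Pink1, both higher in D316A-Tg. The share of members called higher lay near that of all genes, 4.51% of the 14649 tested. The rest of the members showed no common direction. Among all genes 3.96% were called lower, and of the members 0 by edgeR, 3 at an unadjusted p under 0.05 and 1, Tfe3, by DESeq2. In either direction, 4497 of the 14649 genes were at an unadjusted p under 0.05. The median log2 fold change of the members was -0.03, with 14 of 37 above 0, and that of all genes 0.01.

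Bnip3 lay between 320 and 464 CPM (median 403) in the WT-Tg HFD libraries and between 493 and 772 CPM (median 588) in the D316A-Tg ones, and the groups did not overlap. Its log2 fold change was 0.60 (SE 0.13, adjusted p = 0.023, edgeR), a 1.52-fold higher level. Exons of another gene on the opposite strand overlap 22.2% of its exon length. The call held without each of the 12 libraries in turn, with a highest adjusted p of 0.0491, and was lost in a fit of all 24 libraries (adjusted p = 0.144). Pink1 lay between 175 and 265 CPM (median 228) in WT-Tg and between 253 and 356 CPM (median 301) in D316A-Tg. This was 0.41 as a log2 fold change (SE 0.11, adjusted p = 0.0473, edgeR). Its groups overlapped through WT-Tg library 4, at 265 CPM, and D316A-Tg libraries 8 and 11, at 261 and 253 CPM. The call was lost without each library other than D316A-Tg library 12 (highest adjusted p = 0.0998). Fundc1 had a log2 fold change of 0.18 (adjusted p = 0.0971) and Bnip3l one of 0.06 (adjusted p = 0.599), with libraries of 138 to 163 CPM in WT-Tg and 144 to 173 CPM in D316A-Tg.

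Skeletal muscle markers moved with this comparison. All 11 that were tested rose in D316A-Tg on HFD by edgeR, with a median log2 fold change of 6.25, and the muscle score was between -0.11 and 3.21 in WT-Tg and between 3.19 and 8.74 in D316A-Tg, so that score and genotype nearly coincide. With the score as a covariate Bnip3 had a log2 fold change of 0.47 and Pink1 of 0.22, and none of the 37 members nor of all genes was called. All 10 macrophage markers had negative log2 fold changes, 2 of them called, as did all 6 endothelial markers (median -0.62), 3 of them called and all 6 at an unadjusted p under 0.05. Of the 7 markers of adipocyte progenitors and fibroblasts 2 fell (median -0.54). The 8 B lymphocyte markers all had positive ones, with a median of 2.03, and 1 WT-Tg against 4 D316A-Tg libraries were lymphocyte-rich. None of these 8 was called by edgeR or DESeq2, nor at an unadjusted p under 0.05. Without the lymphocyte-rich libraries, which leaves 5 WT-Tg and 2 D316A-Tg libraries, Bnip3 was at 0.75 and Pink1 at 0.50, again with no gene called.

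**Figure D4:**
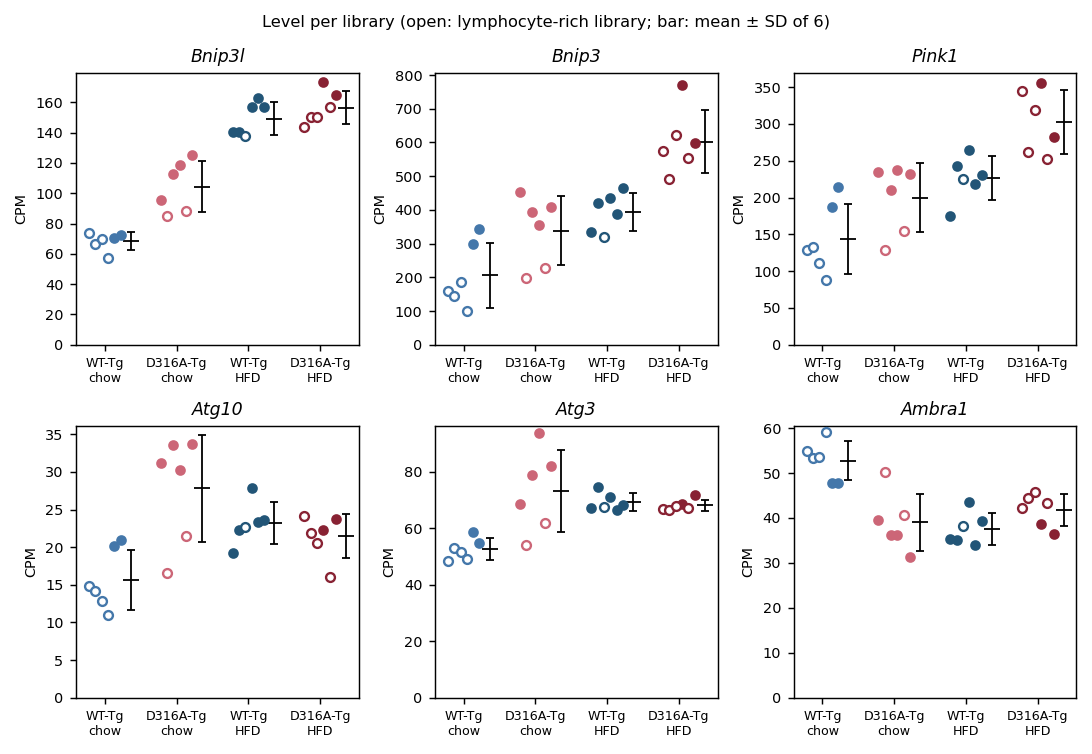
CPM (vertical axis, from 0) of the 6 members called in a comparison within a diet, Bnip3l, Bnip3, Pink1, Atg10, Atg3 and Ambra1, in every library of the 4 groups, with open points for lymphocyte-rich libraries and a bar for the mean ± SD of 6 libraries. Bnip3l on chow and Bnip3 on HFD separate the genotypes without overlap. Atg2a, also called on chow, is not drawn.

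The other roles changed little on HFD. The 5 conjugation genes lay between -0.13 (Atg10) and -0.04 (Atg3), the initiation genes between -0.06 (Atg13) and 0.14 (Ambra1), and the phosphatidylinositol 3-kinase complex between -0.20 (Uvrag) and 0.19 (Pik3c3). Among ATG8 genes Map1lc3b was highest at 0.29 (SE 0.10, adjusted p = 0.085). The values farthest below 0 were those of Optn, optineurin, a cargo receptor of mitophagy, at -0.58 (SE 0.23, adjusted p = 0.12), Tfe3 at -0.34 (SE 0.11, adjusted p = 0.0716) and Lamp1 at -0.30 (SE 0.14, adjusted p = 0.155).

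The D316A effect differed between the diets for 7 members, tested as the difference itself in a fit of all 24 libraries. For 6 of them, Bnip3l, Atg10, Atg3, Atg16l1, Lamp1 and Lamp2, the difference between D316A-Tg and WT-Tg was lower on HFD than on chow, and for Ambra1 it was higher. Of the 16072 genes tested, 6.86% were called lower and 6.08% higher in this test. The median difference was -0.21 for the members and 0.07 for all genes. The difference was 0.59 for Ambra1 (SE 0.14, adjusted p = 0.00866, edgeR), which was 0.44 lower in D316A-Tg on chow and had a log2 fold change of 0.14 on HFD, with libraries of 34.0 to 43.5 CPM in WT-Tg and 36.3 to 45.7 CPM in D316A-Tg. It was -0.54 for Bnip3l (SE 0.13, adjusted p = 0.0121, edgeR) and -0.94 for Atg10 (SE 0.24, adjusted p = 0.0164, edgeR), whose HFD libraries lay between 19.3 and 27.9 CPM in WT-Tg and between 16.1 and 24.2 CPM in D316A-Tg. Atg3, at -0.50, had HFD libraries of 66.6 to 74.7 CPM in WT-Tg and 66.3 to 71.7 CPM in D316A-Tg. Bnip3l, Atg10 and Atg3 had their lowest group means in WT-Tg on chow, and Ambra1 its highest. For Bnip3l both chow groups lay below both HFD groups without overlap, and Atg10 and Atg3 had their highest group means in D316A-Tg on chow.

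The cohorts differ in diet, in age, in the base-calling software that the labels name and in the count table, and these cannot be told apart. Of the 7 calls, 1 remained with the B lymphocyte score as a covariate (Ambra1), 3 without the lymphocyte-rich libraries (Atg3, Atg10 and Bnip3l) and 0 with the skeletal muscle score, under which 45 of all genes were called. The median difference of the members was 0.02 with the B lymphocyte score and -0.24 with the muscle score, against -0.21 as reported above. Leaving out single libraries gave 4 to 13 calls, the 13 being without D316A-Tg chow library 8, where 26.5% of all genes were called. Atg16l1, Lamp1 and Lamp2 lost theirs in 13, 15 and 16 of the 24 fits (highest adjusted p = 0.0858, 0.0642 and 0.0726). For all 3 of them these included each fit without WT-Tg chow library 1, 2, 3 or 4, D316A-Tg chow library 9 or 10, WT-Tg HFD library 6, or D316A-Tg HFD library 7, 8 or 11. Beyond these, Atg16l1 lost it without WT-Tg HFD library 2 or 4 or D316A-Tg HFD library 10. Lamp1 and Lamp2 both lost it without D316A-Tg chow library 7 or 12, WT-Tg HFD library 5 or D316A-Tg HFD library 9, Lamp1 also without WT-Tg HFD library 4, and Lamp2 also without WT-Tg HFD library 1 or 2. The calls of Ambra1, Bnip3l, Atg10 and Atg3 held in all 24 fits.

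Between the cohorts, HFD at 24 weeks against chow at 16 weeks, most members were higher on HFD in WT-Tg. There 20 of 37 rose and 4 fell, against 28.7% higher and 33.3% lower among the 15018 genes tested. The median log2 fold change was 0.35 for the members and -0.06 for all genes. In D316A-Tg 5 members rose and 2 fell, against 14.1% and 16.7% of 14752 genes, with medians of 0.08 and -0.03. The 4 groups give these comparisons their libraries, so each shares its chow and HFD libraries with a comparison between genotypes.

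The members with the lowest adjusted p were 2 initiation genes and a mitophagy receptor, the same 3 in both genotypes. Bnip3l rose 2.22-fold in WT-Tg, from 57.6 to 73.6 CPM on chow to 138 to 163 CPM on HFD (log2 fold change 1.15, SE 0.09, adjusted p = 3.47e-07, edgeR). In D316A-Tg it went from 84.7 to 125 CPM to 144 to 173 CPM (0.56, SE 0.13, adjusted p = 0.00488). Rb1cc1, which encodes FIP200, the large scaffold of the ULK1 complex, went from 35.5 to 47.4 CPM to 72.1 to 90.1 CPM in WT-Tg (0.98, SE 0.09, adjusted p = 2.9e-06, edgeR). In D316A-Tg it went from 43.4 to 57.9 CPM to 80.1 to 91.3 CPM (0.77, SE 0.08, adjusted p = 8.82e-06, edgeR). Ulk2, a kinase closely related to ULK1, went from 49.1 to 80.1 CPM to 131 to 149 CPM in WT-Tg (1.23, SE 0.13, adjusted p = 5.5e-06, edgeR) and from 57.8 to 99.8 CPM to 121 to 170 CPM in D316A-Tg (0.86, SE 0.16, adjusted p = 0.00134). The chow and HFD libraries of each of these 3 genes did not overlap in either genotype. Other members separated without overlap in a single genotype, among them Lamp2, Optn and Ambra1 in WT-Tg, and Bnip3, Pink1 and Atg16l1 in D316A-Tg. How many of all genes did so was not counted, and 62% of them were called in WT-Tg and 30.8% in D316A-Tg.

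Ulk1 itself, the kinase that AMPK phosphorylates, moved far less than Ulk2. Its libraries lay between 39.8 and 51.3 CPM (median 43.3) in WT-Tg and between 32.7 and 59.5 CPM (median 47.6) in D316A-Tg on chow, and between 44.4 and 58.2 (median 51.0) and 43.1 and 60.8 CPM (median 50.02) on HFD. The 4 groups overlapped, and Ulk1 was called in none of the 5 comparisons by edgeR (lowest adjusted p = 0.0872, for the cohorts in WT-Tg at a log2 fold change of 0.21). At an unadjusted p under 0.05 it was called in 0 of them, and by DESeq2 in 1, the same cohort comparison. There Ulk1 was also called by edgeR with the skeletal muscle score as a covariate, and without chow library 5 or 6.

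In WT-Tg the increase reached most roles. All 4 mitophagy genes rose, Bnip3 1.92-fold, Pink1 1.58-fold and Fundc1 1.22-fold beside Bnip3l. So did 4 of the 5 conjugation genes, Atg7 1.85-fold, Atg10 1.497-fold, Atg5 1.44-fold and Atg3 1.34-fold, and 2 of the 4 ATG8 genes, Map1lc3a 2.02-fold and Map1lc3b 1.27-fold. The cargo receptors Optn (2.32-fold) and Sqstm1 (1.49-fold), the phagophore proteins Wipi1 (2.34-fold) and Wipi2 (1.19-fold), Atg13 of the initiation complex (1.35-fold), and the lysosome membrane proteins Lamp2 (2.42-fold) and Lamp1 (1.49-fold) rose as well. Ambra1 (by 0.46 on the log2 scale), Mcoln1 (0.32), Pik3c3, the catalytic subunit of the lipid kinase complex (0.30), and Atg2a (0.26) fell. Mcoln1 and Lamp1, whose promoters above hold 2 and 4 matches to CACGTG, thus moved in opposite directions. In D316A-Tg the calls beside Bnip3l, Rb1cc1 and Ulk2 were Bnip3 (1.74-fold higher), Pink1 (1.49-fold higher), Atg16l1 (0.31 lower on the log2 scale) and Mcoln1 (0.43 lower). Leaving out single libraries ended 3 of the cohort calls. In WT-Tg they were Wipi2, without any of chow libraries 1 to 4 or HFD libraries 4 and 6 (highest adjusted p = 0.0677), and Map1lc3b, without any of chow libraries 1 to 4 or any HFD library but 3 (0.0715). In D316A-Tg it was Pink1, without chow libraries 9 or 11 or HFD libraries 7, 9, 10 or 12 (0.0775).

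**Figure D5:**
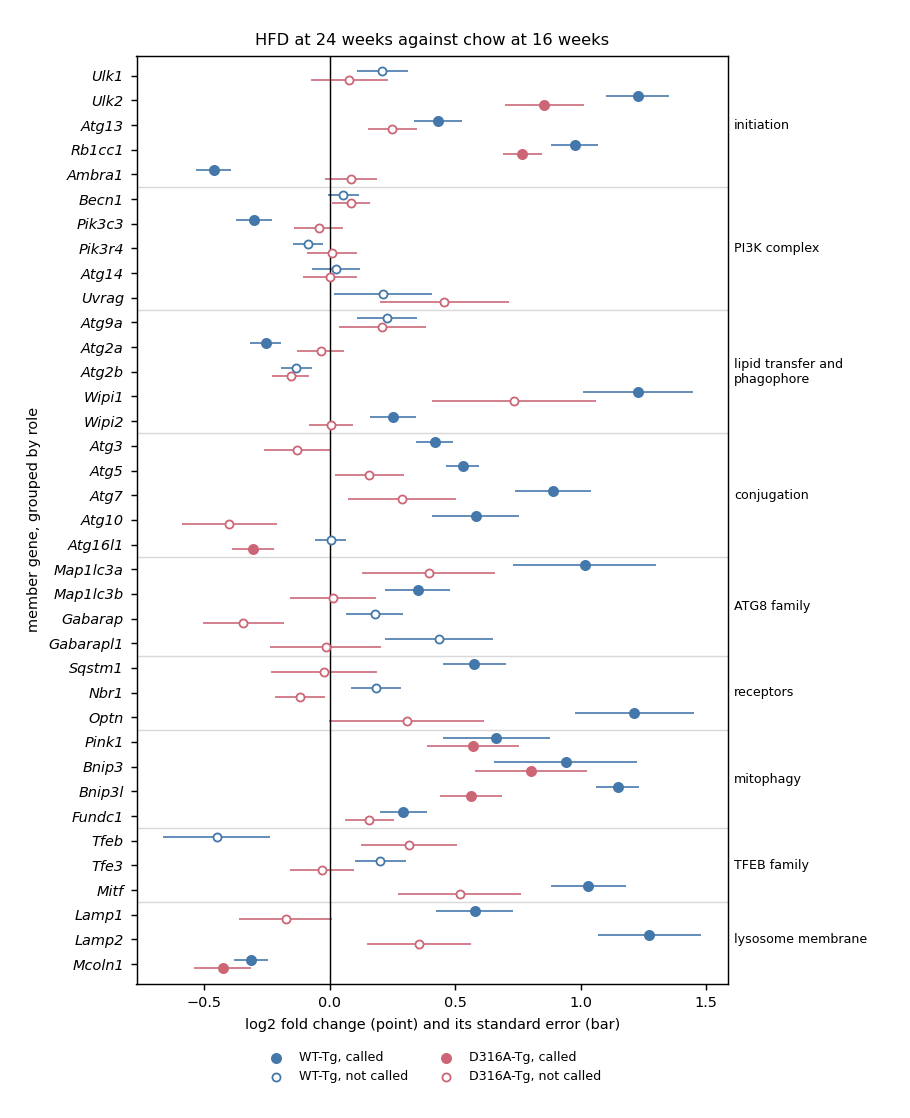
Log2 fold change of HFD at 24 weeks against chow at 16 weeks (horizontal axis) for the 37 members (rows, by role), WT-Tg in blue and D316A-Tg in red. Bars are 1 SE and filled points passed the edgeR test. Bnip3l, Rb1cc1 and Ulk2 are filled at positive values in both genotypes, and Mcoln1 is filled at negative values in both.

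Cell markers moved with the cohorts too. Skeletal muscle markers had a median log2 fold change of -5.52 in WT-Tg and 4.72 in D316A-Tg, and B lymphocyte markers one of -3.50 in WT-Tg and 0.16 in D316A-Tg. Without the lymphocyte-rich libraries 17 members were called in WT-Tg, 15 of them among the 24 (Bnip3, Pink1, Map1lc3a, Map1lc3b, Atg10, Atg2a, Wipi2, Fundc1 and Mcoln1 were lost), and 14 in D316A-Tg, all 7 included. With the skeletal muscle score as a covariate, 30 were called in WT-Tg and 2, Ulk2 and Rb1cc1, in D316A-Tg. Of all genes 51.3% and 47.3% were called in WT-Tg and D316A-Tg without the lymphocyte-rich libraries, and 64.4% and 13% with the muscle score.

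The TFEB family did not move as a group. Tfeb, the factor best known for turning on lysosomal genes, lay between 14.4 and 36.8 CPM (median 28.5) in WT-Tg and between 10.4 and 21.2 CPM (median 15.9) in D316A-Tg on chow, and between 16.4 and 22.3 (median 17.8) and 15.5 and 25.6 CPM (median 19.3) on HFD. Its log2 fold change between genotypes was -0.73 on chow (SE 0.26, adjusted p = 0.097, edgeR) and 0.08 on HFD (adjusted p = 0.72), and the difference between these missed the threshold at 0.82 (SE 0.31, adjusted p = 0.0791). In WT-Tg on chow its 4 lymphocyte-rich libraries held 26.7 to 36.8 CPM and the other 2 held 14.4 and 15.1 CPM. In D316A-Tg on chow the 2 lymphocyte-rich libraries held 19.6 and 21.2 CPM and the other 4 held 10.4 to 16.1 CPM. Its chow log2 fold change was -0.33 with the B lymphocyte score as a covariate and -0.14 without the lymphocyte-rich libraries. In the fit of all 24 libraries Tfeb was called lower on chow (-0.72, adjusted p = 0.0222, edgeR). Its difference between the diets was called without WT-Tg chow library 5 or 6 or D316A-Tg chow library 8 (adjusted p = 0.0296, 0.0311 and 0.0349). With the skeletal muscle score as a covariate Tfeb was called lower between the cohorts in WT-Tg (-0.59, adjusted p = 0.0333, edgeR).

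Tfe3, which shares targets with Tfeb, lay between 45.3 and 49.4 CPM (median 48.2) in WT-Tg and between 36.7 and 57.6 CPM (median 40.7) in D316A-Tg on chow, and between 45.1 and 69.5 (median 51.5) and 38.7 and 51.0 CPM (median 43.0) on HFD. It was called in none of the 5 comparisons by edgeR, with the HFD genotype comparison nearest at an adjusted p of 0.0716, and in that one by DESeq2 (adjusted p = 0.039). By edgeR Tfe3 was called lower on HFD without D316A-Tg library 12, and higher between the WT-Tg cohorts without HFD library 2. Mitf, the family member that directs melanocyte and osteoclast genes, lay between 7.26 and 10.0 CPM (median 8.85) in WT-Tg and between 6.56 and 16.9 CPM (median 9.53) in D316A-Tg on chow, and between 12.6 and 21.96 (median 17.9) and 13 and 21.04 CPM (median 13.8) on HFD. It rose 2.04-fold between the cohorts in WT-Tg (log2 fold change 1.03, SE 0.15, adjusted p = 9.47e-05, edgeR), whose libraries did not overlap, and had 0.52 in D316A-Tg (adjusted p = 0.132). In D316A-Tg Mitf was called higher with the B lymphocyte score as a covariate, in the fit of all 24 libraries, and without chow library 7. Melanocyte markers summed to at most 5.69 CPM in any library, with Oca2 at 0 in all. Macrophage markers summed to 435 to 2225 CPM in WT-Tg on chow and 744 to 2084 CPM on HFD, and 5 of the 10 tested rose. Their part in the change of Mitf was not tested.

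Genes of the same pathways that are not among the 37 were counted from 4 lists. On chow, of 37 other autophagy and mitophagy genes 2 rose, Gabarapl2, another ATG8 gene (log2 fold change 0.55, adjusted p = 0.0362, edgeR), and Epg5, a tether of autophagosomes to lysosomes (0.37, adjusted p = 0.0256), with a list median of 0.26. Tmem41b, a scramblase needed for phagophores, was nearest below the threshold (0.50, adjusted p = 0.0518). Of 18 genes of the V-ATPase, the pump that acidifies the lysosome, 3 rose, Atp6v1d, Atp6v1a and Atp6v0e (median 0.30). Atp6v1d went from 57.9 to 62.1 CPM in WT-Tg to 78.4 to 96.1 CPM in D316A-Tg, with no overlap (0.54, SE 0.07, adjusted p = 0.00499, edgeR). Of 27 regulators of mTORC1, 2 rose, Fnip1, a partner of folliculin (0.82, SE 0.11, adjusted p = 0.00544), and Mtor, the kinase itself (0.73, adjusted p = 0.0144). Fnip1 lay between 19.4 and 28.0 CPM in WT-Tg and between 36.8 and 46.9 CPM in D316A-Tg. The median over 41 lysosomal enzymes and membrane proteins was -0.09, near the -0.07 of all genes. In that list the protease gene Ctsd (0.80, adjusted p = 0.0526, edgeR) and Scarb2, a lysosome membrane protein (0.45, adjusted p = 0.0534), lay just short of the threshold. None of the 4 lists had a member called lower by edgeR. At an unadjusted p under 0.05, 1, 5, 2 and 2 genes of the autophagy, enzyme, V-ATPase and mTORC1 lists were lower, and 0, 3, 1 and 1 were called lower by DESeq2. Of the 15249 genes tested on chow, 4553 were at an unadjusted p under 0.05 in either direction. Among all genes edgeR called 5.3% higher and 3.25% lower, and DESeq2 called 19.7% in either direction. The calls in these lists are to be read beside those shares.

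On HFD the same lists had lower medians. Of the other autophagy genes 3 fell, Rhot1, which tethers mitochondria to motors (0.28 on the log2 scale, adjusted p = 0.0324, edgeR), Tmem41b (0.22, adjusted p = 0.0442), and Nrbf2, a partner of ATG14 (0.46, adjusted p = 0.0484). Of the lysosomal enzymes 1 rose, Ids, a sulfatase (0.31, adjusted p = 0.0344), with a list median of -0.20. Of the 18 V-ATPase genes 17 had a negative log2 fold change (median -0.22), 0 of them called by edgeR, 8 lower at an unadjusted p under 0.05 and 4 by DESeq2. Of the 14649 genes tested on HFD, 4497 were at an unadjusted p under 0.05 in either direction, and DESeq2 called 19.1% of all genes. By edgeR 4.51% of all genes were called higher and 3.96% lower. Atp6v0b (-0.29), Atp6v0a1 (-0.83) and Tcirg1 (-0.51) had the lowest adjusted p of the pump genes, from 0.0729 to 0.0902. Of 26 mTORC1 regulators tested 3 rose, Tsc1, an inhibitor of mTORC1 (0.35, adjusted p = 0.0196), Sesn3, a sestrin (0.47, adjusted p = 0.0473), and Rragd, a Rag GTPase (3.75, SE 0.78, adjusted p = 0.0227). Rragd, which is abundant in skeletal muscle, lay between 0.49 and 1.35 CPM in WT-Tg and between 1.10 and 48.3 CPM (median 6.45) in D316A-Tg, beside the muscle markers given above. The list medians compare with 0.01 for all genes on HFD.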

How the data were processed

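RNA from inguinal white adipose tissue was sequenced as stranded polyadenylated libraries, per the labels' protocols, which name a minimum RNA integrity number of 7. The authors deposited whole-number counts per gene, 1 table for each diet cohort. The submitters' processing notes name bcl2fastq 2.20.0.422 for chow, bclfastq 2.16.0.10 for HFD, FastQC, STAR 2.4.1, DESeq2 and mm10. The counting tool, annotation and strand setting were not stated in any source used here.

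Counts were tested with edgeR 4.0.16 (R 4.3.3) by its quasi-likelihood test with robust dispersions, TMM scaling and edgeR's default filter on low counts. Benjamini-Hochberg adjustment ran over all genes tested, with a threshold of 0.05. Each cohort was fitted on its own for genotype, each genotype on its own for cohort, and all 24 libraries together for the difference. Alternatives were RLE scaling, no filter, DESeq2 1.42.0, all 24 libraries in a single fit, a B lymphocyte or skeletal muscle score as a covariate, the omission of lymphocyte-rich libraries or of each library in turn, and a replicate block. The fits were also run on simulated counts, with changes larger than those called among the members within a diet and no differences in cell content. That run does not bear on how well changes of the size called there are found. Totals per library ran from 13254536 to 22748132 counts, and libraries of a group differed by more than sampling noise (lowest chi-square per degree of freedom 14.43 for any pair).

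Levels are TMM-scaled CPM over all 24 libraries and, between genes, CPM per kilobase of GENCODE M21 exon. Marker scores are mean log2 CPM with a prior count of 2. Promoters are RefSeq's, on GRCm38.p6. The members and lists were chosen with earlier results of these data known. Values by group are given for up to 8 members called within a diet, the 3 with the lowest adjusted p in each other comparison, the TFEB family and Ulk1. Other members are given by range and count, and up to 3 genes of each pathway list are named within a diet. A result for the lysosomal list on chow is not reported here.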

Additional observations from a re-analysis of the deposited data

Results flagged for a closer look

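In 4 of the 148 groups of 6 libraries examined, 4 sets of libraries for each of the 37 members, the lowest or highest library stood apart from the others by more than Dixon's 95% critical value for 6 samples. Chance flags about 1 in 20 such groups. Pik3c3 in WT-Tg chow library 4 was at 43.04 CPM, Map1lc3b in WT-Tg HFD library 3 at 110.3 CPM, Gabarapl1 in that same library at 136.4 CPM and Mcoln1 in D316A-Tg chow library 11 at 34.53 CPM. All of these 3 libraries are lymphocyte-rich.

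The D316A effect differed between the diets, by edgeR's test of the difference itself with adjustment over all genes, for 7 members. HFD minus chow on the log2 scale, the difference was 0.589 for Ambra1, -0.4998 for Atg3, -0.941 for Atg10, -0.2654 for Atg16l1, -0.5378 for Bnip3l, -0.7096 for Lamp1 and -0.8797 for Lamp2. Diet, age and sequencing cohort cannot be told apart in this difference. B lymphocyte and skeletal muscle markers had median differences of 3.69 and 10.2, and with these scores as covariates 1 and 0 of the 7 remained.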

How the results depend on the processing

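The number of members called on chow, 5 as reported, was 1 without a filter on low counts, 12 with DESeq2, 10 with the B lymphocyte score as a covariate, 0 with the skeletal muscle score, 6 without the lymphocyte-rich libraries, 16 with all 24 libraries in a single fit, and 0 to 14 leaving out single libraries. The share of all genes called was 8.54% as reported. In these fits, in that order, it was 2.13%, 19.7%, 24.7%, 1.17%, 15.3%, 22.5% and 0.901% to 21.9%. On HFD, 2 members were called as reported. The number was 1 without the filter, 4 with DESeq2, 2 with the B lymphocyte score, and 0 with the muscle score, without the lymphocyte-rich libraries or in the single fit. Leaving out single libraries gave 1 to 6, the 6 being without D316A-Tg library 12. Of all genes 8.47% were called as reported, and 3.22%, 19.1%, 0.157%, 0%, 0%, 5.49% and 2.19% to 26.3% in these fits, in that order. Between the cohorts in WT-Tg, 24 members were called as reported and 17 to 30 over all alternatives, where 62% and 43% to 66.5% of all genes were called. In D316A-Tg, 7 members were called as reported, where 30.8% of all genes were called. The number was 17 with the B lymphocyte score (47.5% of all genes), 2 with the muscle score (13%) and 14 without the lymphocyte-rich libraries (47.3%). It was 11 in the single fit (37.2%) and 6 to 9 leaving out single libraries (24% to 34.5%). For the difference between diets, 7 members were called as reported, where 12.9% of all genes were called. The number was 4 without the filter (5.44% of all genes), 8 with DESeq2 (18.7%), and 1 and 0 with the B lymphocyte and muscle scores (8.2% and 0.28%). It was 3 without the lymphocyte-rich libraries (9.39%) and 4 to 13 leaving out single libraries (8.4% to 26.5%). RLE scaling gave the reported counts. The causes of these changes were not tested. The muscle score nearly coincides with genotype on HFD, and it separates the genotypes among the chow libraries that are not lymphocyte-rich. Fits that leave libraries out hold fewer of them, and gave counts both above and below those reported.

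Signs were followed only for the members called in a given comparison and for Tfeb, Tfe3, Mitf and Ulk1. Among these, signs turned only where the member was not called as reported. With the B lymphocyte score the median of all members turned on HFD, from -0.027 to 0.093. For the difference between diets it turned from -0.206 to 0.023. On HFD the median also turned with the muscle score, without the lymphocyte-rich libraries and without D316A-Tg library 8. Signs of other members thus turned too, and the values that follow are not a full list. With the B lymphocyte score as a covariate, Ulk1 was at -0.113 on chow, 0.09332 on HFD and 0.2191 for the difference between diets, Tfeb at -0.2175 on HFD and 0.04278 between the WT-Tg cohorts, Mitf at 0.1671 on HFD and 0.06964 for the difference, and Tfe3 at 0.08887 between the D316A-Tg cohorts. Without the lymphocyte-rich libraries, Tfeb was at -0.1424 on HFD, 0.267 between the WT-Tg cohorts and -0.05256 for the difference, Mitf at 0.06426 and Ulk1 at 0.07446 on HFD. With the muscle score, Ulk1 was at 0.06111 on HFD and Tfe3 at 0.01951 between the D316A-Tg cohorts, where Tfe3 without the filter was at 0.009889. Leaving out single libraries gave -0.0456 to 0.1387 for Ulk1 on chow, -0.1184 to 0.004902 for Ulk1 and -0.00291 to 0.153 for Tfeb on HFD, and -0.1075 to 0.04617 for Tfe3 between the D316A-Tg cohorts.

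Libraries share numbers between the cohorts of a genotype, but same-numbered libraries did not all deviate together (correlations of -0.411 to 0.636), and 4 of 12 libraries correlated best with their own number. With the replicate number as a block (replicate block), 23 members were called between the WT-Tg cohorts, 7 between the D316A-Tg cohorts and 7 for the difference. The share of all genes called was 55.8%, 29.9% and 16.6%, in that order. Wipi2 lost its call in the first, the second kept all 7 calls, and in the third Atg16l1 lost its call and Sqstm1 gained one. Genotypes on the same diet share no numbers, so they allow no such fit. Depth limits the low members most: Mitf had 105 to 440 counts a library and Lamp1 6686 to 17174.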
